A study of Mus musculus with 4 samples.

Results

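The probe sets described here measure proteasome subunits and the enzymes that attach ubiquitin to proteins or remove it. Members were all probe sets whose single gene symbol in the platform annotation begins with Psma to Psmg, Ube2, Uba and a digit, Usp and a digit, or Uch. There were 97 such probe sets of 75 genes, among 13057 probe sets of 6137 named genes on the arrays. The first array type carried 76 of them (65 genes) and the second type, marked MB in the sample titles, carried 21 (19 genes), with 9 genes on both.

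The cells were a stable line of NIH3T3, immortal mouse embryo fibroblasts, in which tetracycline represses the promoter that drives an introduced wild-type PKR gene. PKR senses double-stranded RNA and slows protein synthesis by phosphorylating eIF2 alpha. Control cultures were grown in DMEM with 5% fetal calf serum and 1 µg/ml tetracycline, and the other cultures had tetracycline withdrawn for 5 h to induce PKR. The serum content of the withdrawn cultures is not given in the labels, and both conditions share the integrated PKR gene. Each condition had 1 array per type, 4 arrays in all, and whether both arrays of a condition share an RNA extract is not stated. The comparison addresses how transcripts of protein degradation differ after PKR induction, with no replicate and so no p-value, and every difference describes these arrays only.

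The proteasome is a barrel-shaped protease. Its 20S core is built of outer alpha rings that gate the entry and inner beta rings that hold the catalytic sites. The 19S regulatory particle caps the core, binds ubiquitinated proteins, removes their ubiquitin and unfolds them with a ring of ATPases. Ubiquitin reaches a substrate through an activating enzyme, a conjugating enzyme and a ligase in turn, and deubiquitinating enzymes take it off again.

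Each value is the deposited intensity of 1 probe set on 1 array, in arbitrary units. A probe set was called measured when both arrays of its type exceeded a floor, the 25th percentile of all values of that type (129.7 for the first type, 80.00 for MB). A stricter control floor, the 95th percentile of 39 bacterial and yeast control probe sets, was 281.5 and 340.4. The change is the log2 ratio of the withdrawn over the tetracycline intensity, and a gene took the median change of its measured probe sets. Of the 97 probe sets 82 were measured, 8 exceeded the floor on 1 array only and 7 on neither, and 75 exceeded the control floor on both arrays. The measured probe sets covered 66 of the 75 genes. Across all named genes with 2 probe sets measured on 1 array type, the changes of the pair differed by a median of 0.35 (675 pairs), which gives a spread of 0.37 per probe set on the log2 scale. This probe spread pools all intensities and is no replicate error. Across all measured probe sets the spread of the changes fell with intensity. On the first type it was 0.72 under an intensity of 500 and 0.24 at 5000 or more, and on MB 0.88 and 0.23.

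The whole series was centred close to 0. Measured probe sets had a median log2 change of -0.012 on the first type (4402 probe sets) and 0.025 on the MB type (4360). Bright probe sets leaned lower: of the 333 on the first type with a mean intensity of at least 5000, 67.0% were lower after withdrawal, with a median of -0.12. Eif2ak2, the gene of PKR, read 643.3 and 663.6, and whether its mouse probe set detects the introduced PKR is not known. Of 14 fibroblast markers 13 were measured, and their summed intensity was 74494 with tetracycline and 60050 after withdrawal on the first type, and 204087 and 167757 for MB. The summed leukocyte markers read 4530.6 and 4314.8, and 5258.7 and 4648.7, with 7 and 6 of 12 probe sets above the control floor on the first type and 3 and 1 of 10 on MB. Without the leukocyte probe set that differed most, a choice made after seeing the data, the sums were higher after withdrawal: 3653 and 4204 without Cd52 (877.6 to 110.8), and 4311.9 and 4455.8 without 1 Ighm probe set (946.8 to 192.9). The part of these shifts in the results was not tested. The cultures were of 1 fibroblast line, so the leukocyte sums are not read as numbers of leukocytes. In such bulk samples, fewer cells and less RNA per cell cannot be told apart.

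Most members differed little between the conditions. On the first type 3 of 62 measured member probe sets were at least 2-fold lower after withdrawal, against 4.02% of all measured probe sets, and 0 were at least 2-fold higher, against 4.36%. On the MB type 0 of 20 passed 2-fold in either direction, against backgrounds of 8.46% higher and 6.65% lower. Above the control floor no member passed 2-fold: 0 of 57 on the first type (backgrounds 1.88% higher and 1.29% lower) and 0 of 18 on MB (1.97% and 0.767%). At 1.5-fold the first type had 6 lower members (background 10.7%) and 0 higher (12.4%). The MB type had 1 in each direction at that limit, Psmb9 higher (background 17.6%) and Ube2o lower (12.9%). To any extent, 41 of the 66 measured genes were lower (62.1%), against 50.4% of all 4507 measured genes, with a median of -0.15 against -0.0037. The array types differed in this: on the first type alone 36 of 54 genes were lower (median -0.18), against 50.9% of all genes. On the MB type alone 8 of 18 were lower (median 0.039), against 49.3%. The types carry mostly different members, with 9 genes on both, so these counts do not compare the same genes.

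**Figure D1:**
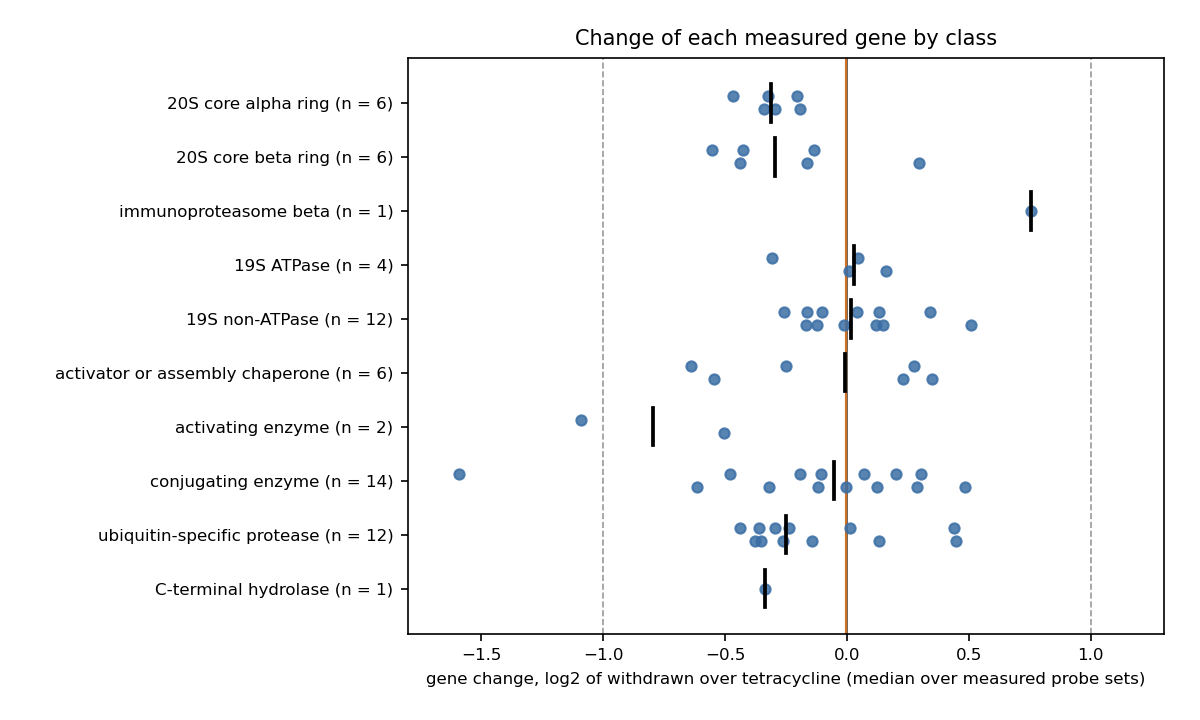
Log2 change of each measured gene except Psmc3ip and Psme3ip1 (x axis, median over measured probe sets, no unit), with 1 point per gene and 1 row per class. Black bars mark class medians, the orange line marks the median of all genes (-0.0037) and dashed lines mark 2-fold. The points of both 20S rings sit left of 0 except for Psmb7 at 0.30, those of the 19S classes lie on both sides of 0, and Uba7 and Ube2l6 lie past the 2-fold line on the left.

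The 20S core was lower as a group. All 6 measured alpha ring genes and 5 of 6 beta ring genes were lower after withdrawal, 11 of 12 together (91.7%, against 50.4% of all genes). The median change of the 12 genes was -0.31, with a mean of -0.27, and none passed 2-fold. All 17 core probe sets exceeded the control floor on both arrays, so no member was lost to a floor.

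Among the alpha ring genes, which form the gated outer rings, Psma7 had the lowest change: it read 4715.8 with tetracycline and 3414.1 after withdrawal, a log2 change of -0.47. Psma5 read 4278.6 and 3381.2 (-0.34). On the MB type, Psma2 read 7361.2 and 5422.4 on 1 probe set and 4940.2 and 4274.1 on the other, with changes of -0.44 and -0.21. The withdrawn array was the lower one on each of these probe sets. Psma6 (-0.30) and both probe sets of Psma3 (-0.23 and -0.18) had smaller changes in the same direction. Of the alpha genes only Psma4 had probe sets that disagreed: 1 read 6822.7 and 5019 (-0.44), and the other 1663.4 and 1727.4 (0.054).

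The beta ring genes ranged more widely. Psmb3, which encodes a structural beta subunit, was lower on both its probe sets, from 7451.5 to 5174.2 (-0.53) and from 4529.2 to 3030.2 (-0.58). Psmb1, likewise structural, read 1128.6 and 731.6 on its probe set of the first type (-0.63) and 12695.4 and 10826 on that of the MB type (-0.23). It was therefore lower on both array types. Psmb2, a further structural subunit, read 3888.2 and 2867.2 (-0.44). Psmb4 (-0.16) and Psmb6, the subunit with caspase-like activity (-0.14), had the smallest negative changes of the ring. Psmb7, which carries the trypsin-like activity, was the exception and was higher, from 3387.6 to 4158.6 (0.30). No probe set with a single symbol was named for Psmb5, the chymotrypsin-like subunit.

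Set against the spread of 0.37 per probe set, which pools faint and bright probe sets, single core changes were mostly of about that size or smaller. Among the 200 probe sets nearest in intensity, the spread was 0.27 for Psma7, 0.31 for Psmb2 and 0.28 for Psma5, each smaller than the change. It was larger than the change for Psmb4 (0.29), Psmb6 (0.27) and both probe sets of Psma3 (0.28 and 0.35). Single core changes thus fell on both sides of it. The 2 core genes measured on the MB type, Psma2 and Psmb1, had a median of -0.28, and the 11 on the first type a median of -0.30. After removal of the trend of change with intensity the core median was -0.28, with 11 of 12 genes still lower, and with quantile normalization it was -0.28 with the same count. All 17 core probe sets carry a suffix that marks probes shared between transcripts or a gene family, so no core value remains when such probe sets are left out.

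**Figure D2:**
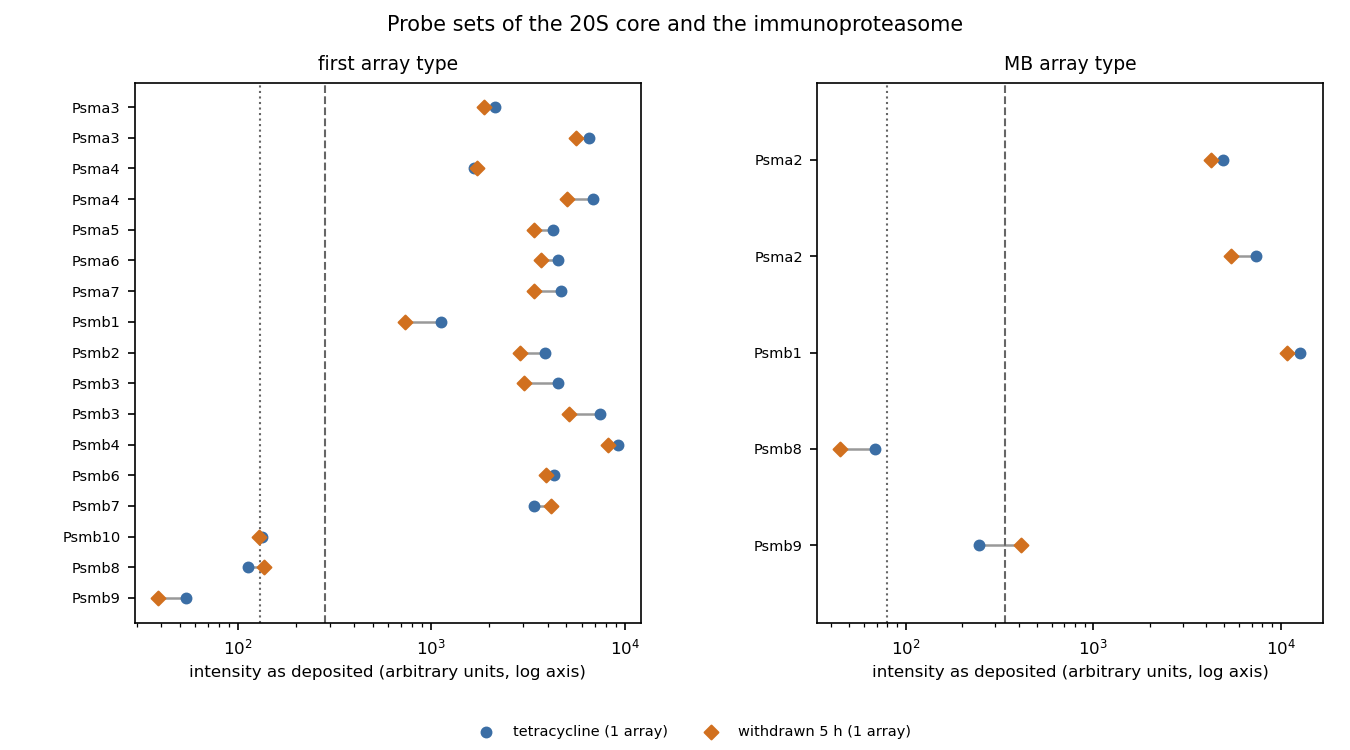
Intensity of each 20S core and immunoproteasome probe set (x axis, arbitrary units on a log scale) on the tetracycline array (circles) and the withdrawn array (diamonds), with 1 row per probe set and 1 panel per array type; the dotted line is the floor and the dashed line the control floor. Core diamonds lie left of their circles except for Psmb7 and 1 probe set of Psma4, and most immunoproteasome values lie at or below the floor.

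The immunoproteasome exchanges the 3 catalytic beta subunits of the core for Psmb8, Psmb9 and Psmb10, which interferon induces and which shape peptides for class I antigen presentation. Of their 5 probe sets 4 read at or near the floor in both conditions. Psmb8 read 112.5 and 137.1 on the first type, and 68.6 and 44.9 on MB. Psmb10 read 133.0 and 129.4. Psmb9 read 53.9 and 38.7 on the first type, below the floor, but 245.0 and 413.5 on the MB type (0.76), where the tetracycline value lies below the control floor. Against that control floor the MB difference of Psmb9 has a bound of at least 1.21-fold. Values under the floor have no order, so the array types cannot be set against each other for these genes, and no immunoproteasome gene exceeded the control floor on both arrays of a type.

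The 19S regulatory particle did not share the direction of the core. Of 16 measured genes 7 were lower and 9 higher (43.8% lower, against 50.4% of all genes), with a median of 0.026. The 16 include Psmd9 (0.51) and Psmd5 (-0.17), which are chaperones of ATPase ring assembly and were grouped here by gene name. The 4 measured ATPase genes had a median of 0.028 and the 12 non-ATPase genes one of 0.015 (-0.013 with quantile normalization), and none passed 1.5-fold. With the trend of change with intensity removed, the 19S median was 0.039. The difference between the medians of core and 19S particle has no test here, since genes are not replicates of a condition.

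Among the ATPases, which unfold substrates and open the core, Psmc1 read 1809.9 and 2022.3 (0.16), Psmc4 read 2368.7 and 2446.5 (0.047) and Psmc5 read 5749.5 and 5789.8 (0.010). Psmc3 was the lower one, with 620.8 and 502.3 (-0.31). All these changes were under the probe spread. The probe set of Psmc2 read 31.0 and 24, below the floor. That of Psmc6 read 109.7 and 271.1, which bounds its difference at 2.09-fold higher or more against the floor, while both values lie under the control floor.

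Among the non-ATPase genes, Psmd9, a chaperone of ATPase ring assembly, had the highest change, from 1315.4 to 1873.3 (0.51). Psmd12, a subunit of the lid, read 1661.5 and 2104.2 on 1 probe set (0.34). A second Psmd12 probe set, from the same source sequence, read 53.1 and 254.7, under the control floor on both arrays. Psmd2, the scaffold that binds ubiquitin shuttles, was the lowest, with 1885.8 and 1576.3 (-0.26). Psmd3, a lid subunit on both array types, read 2683.1 and 2991.7 (0.16) and 9550.2 and 10080.7 (0.078), so its probe sets gave a small change in 1 direction. The lid subunit gene Psmd8 gave -0.029 on the first type and 0.29 on MB. The ubiquitin receptor Psmd4 (0.043), the scaffold Psmd1 (0.15), Psmd7 (-0.10), Psmd11 (-0.12) and the ATPase chaperone Psmd5 (-0.17) stayed within these limits, as did both probe sets of Psmd6 (-0.20 and -0.13).

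The proteasome carries 3 deubiquitinating enzymes, looked up together after their values were seen. Psmd14, the lid enzyme that releases ubiquitin chains during degradation, read 1841.7 and 1826.3 (-0.012). Usp14, which trims chains at the base of the particle, read 2267.8 and 1892.1 (-0.26). Uchl5, which edits chains from the distal end, read 2574.9 and 2262.9 on 1 probe set and 1452.2 and 1034.9 on the other (-0.19 and -0.49). Usp14 and Uchl5 were lower, but only 1 Uchl5 probe set by more than the probe spread of 0.37. Psmd14 was on the MB type only and Usp14 and Uchl5 on the first type only. The enzyme of the lid therefore cannot be set against the associated enzymes within an array type.

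**Figure D3:**
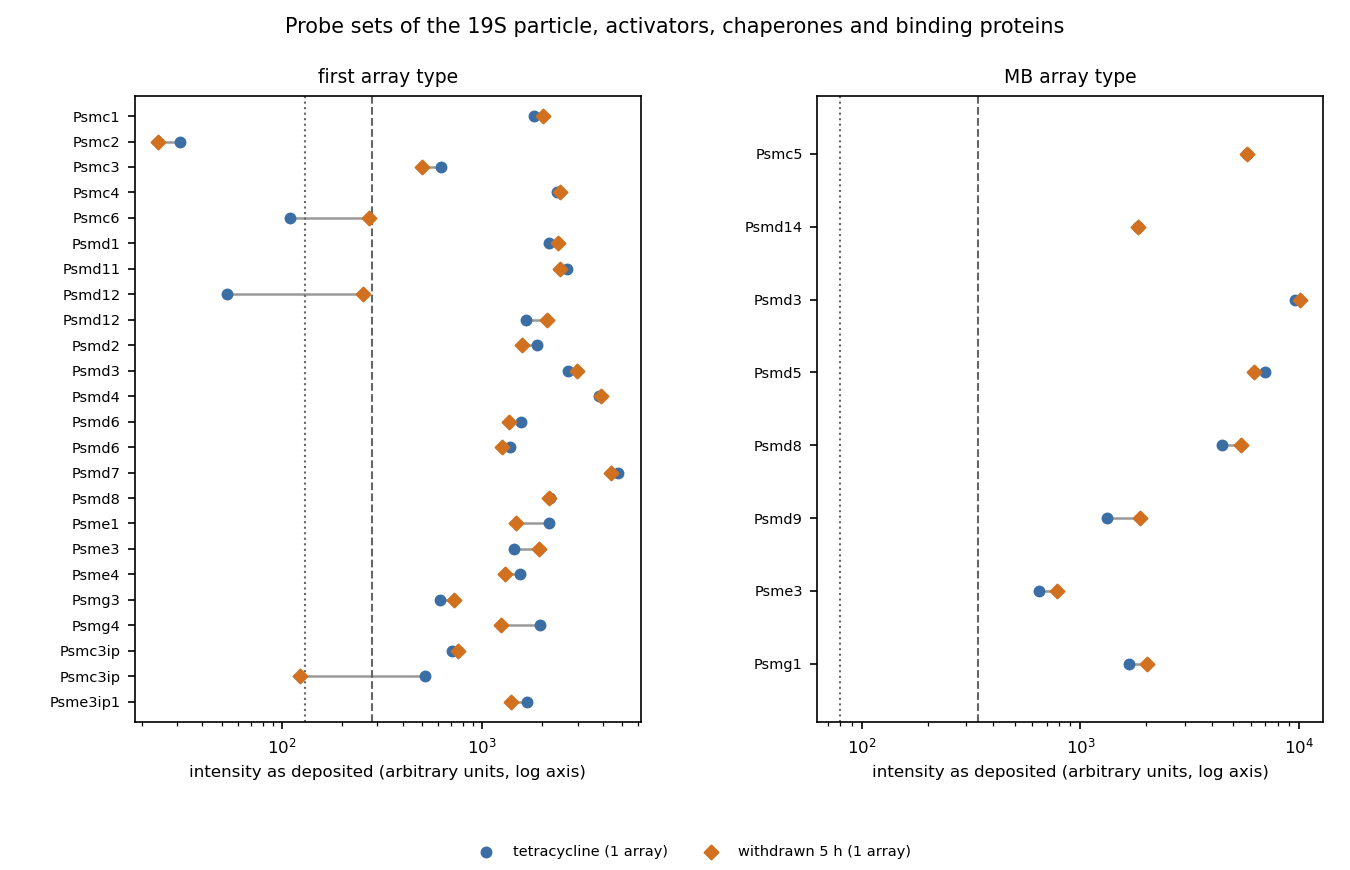
Intensity of each 19S, activator, chaperone and subunit-binding probe set (x axis, arbitrary units on a log scale) on the tetracycline array (circles) and the withdrawn array (diamonds), 1 row per probe set and 1 panel per array type; dotted and dashed lines are the floor and the control floor. Most 19S pairs nearly coincide, Psme1 and Psmg4 move left, Psme3 moves right on both types, and Psmc6, 1 Psmd12 and 1 Psmc3ip probe set cross the floor.

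Proteasome activators and assembly chaperones went both ways. Of 6 measured genes 3 were lower and 3 higher, with a median of -0.010. Psme1, a subunit of the interferon-induced activator PA28, read 2166.3 and 1484.2 (-0.55). The probe set for its partner Psme2 carries a second symbol, Psme2b, and is no member; it read 1784 and 1760.8 (-0.019). Psme3, the nuclear PA28 gamma, was higher on both types, from 1435.9 to 1934.7 (0.43) and from 647.9 to 777.7 (0.26). Psme4, the activator PA200, read 1540.8 and 1297.4 (-0.25). The 2 PA28 genes that are members therefore went in opposite directions.

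Chaperones of alpha ring assembly differed among themselves. Psmg4 read 1936.7 and 1244.7 (-0.64), the lowest change of any proteasome gene above the control floor. Psmg1 read 1674.6 and 2024.6 (0.27), and Psmg3 read 617.7 and 723.4 (0.23). The rule also took in genes named for a subunit they bind that belong to no proteasome complex. Psme3ip1, which binds Psme3, read 1668.8 and 1400.2 (-0.25). Psmc3ip, a meiotic recombination factor, read 709.6 and 755.6 (0.091) on 1 probe set. Its second probe set, from the same source sequence, read 516.7 and 123.2, a bound of at least 3.98-fold lower against the floor and 1.84-fold against the control floor.

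RefSeq promoter windows (GRCm38.p6), which run from 250 bases before to 50 bases after a gene's start, were given for 58 of the 75 member genes. They were searched on both strands for GAAA, 2 bases of any kind and GAAA again, the core of the element that interferon-activated factors bind. It was found in 5 of 66 member windows (7.58%), against 3.44% of all 32851 windows. All 5 are shown, as the only member windows with a match; Psmb3, Psme1 and Psmg4 were lower, Psmd9 was higher and Psmd4 (0.043) lay between. Capitals mark the match in each stretch, read along the gene's own strand, and a TTTC start marks a match on the opposite strand.
Psmb3, chr11:97703241-97703310, plus strand: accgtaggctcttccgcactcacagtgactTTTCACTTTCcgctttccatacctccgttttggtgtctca
Psme1, chr14:55578473-55578542, plus strand: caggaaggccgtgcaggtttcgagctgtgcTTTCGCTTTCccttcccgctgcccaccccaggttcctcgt
Psmg4, chr13:34162949-34163013, plus strand: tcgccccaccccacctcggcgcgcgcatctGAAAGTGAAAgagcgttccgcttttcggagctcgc
Psmd4, chr3:95042655-95042724, minus strand: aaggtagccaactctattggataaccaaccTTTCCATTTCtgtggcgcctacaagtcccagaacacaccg
Psmd9, chr5:123228001-123228070, plus strand: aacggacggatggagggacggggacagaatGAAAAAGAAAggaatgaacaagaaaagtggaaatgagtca
The matches of Psmb3, Psmd4 and Psmd9 begin 163, 80 and 159 bases before the start, and those of Psme1 and Psmg4 begin 9 and 15 bases after it. A match describes the letters only. The members with the widest changes, Ube2l6, Uba7 and Psmb9, had windows without these letters, as had Psmb8 and Psmb10, which says nothing of more distant sequence.

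The core of the antioxidant response element, TGACNNNGC, to which the factor encoded by Nfe2l1 binds when proteasome genes are induced, was found in 9 of 66 member windows (13.6%, against 12.4% of all windows). Of the core genes only Psmb6 held it among 10 windows (10%), and Psmc6, Psmd9 and Psmd12 among 16 windows of the 19S particle (18.8%). CCAAT, a short and common promoter box, was in 5 of 10 core windows (50%) and 4 of 16 windows of the 19S particle (25%), against 37.4% of all. CCAAT was in windows of Psma2, Psma3, Psma6, Psma7 and Psmb3. These counts are small and are given as a description.

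Both measured activating enzymes were lower, and both were faint. Uba7 activates ISG15, the ubiquitin-like protein that interferon induces. It read 295.0 and 138.4 on 1 probe set, a 2.13-fold lower value (-1.09), and 163.3 and 48.8 on the other, where the withdrawn value is below the floor and the bound is at least 1.26-fold. The 2 probe sets come from the same source sequence. Against the control floor the bound of the brighter one was at least 1.05-fold. Uba1y, the activating enzyme encoded on the Y chromosome, read 163.8 and 115.6 on the MB type (-0.50), under the control floor on both arrays.

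The conjugating enzyme of the same ISG15 pathway, Ube2l6, had the largest change of any member measured on both arrays. It read 793.3 with tetracycline and 263.4 after withdrawal, 3.01-fold lower (-1.59), and was at least 2.82-fold lower against the control floor. The spread among the 200 probe sets nearest in intensity was 0.52. This probe set carries a suffix for a gene family, and no second Ube2l6 probe set was named. Other genes of the pathway were faint. Usp18, the protease that removes ISG15, read 35.3 and 80.9, below the floor on both arrays. Isg15 itself read 207.4 and 253.1 on the MB type (0.29), below the control floor. Usp18 thus gave no direction, and Isg15 gave only a faint one. In this pathway only the tetracycline values of Ube2l6 and of the brighter Uba7 probe set exceeded the control floor.

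Among the other conjugating enzymes the changes were small. Of 14 measured genes, Ube2l6 included, 8 were lower (57.1%, against 50.4% of all genes) and 6 higher. Their median of -0.055 became 0.069 over the 11 genes above the control floor. Ube2o, a large enzyme with ligase activity of its own, read 1515.0 and 989.7 on the MB type (-0.61), while its probe set on the first type read 25.8 and 58.3, below the floor. Ube2d2a, which works with many ligases, read 473.7 and 663.2 (0.49). Both probe sets of Ube2h were higher, from 716.1 to 1007.4 (0.49) and from 832.1 to 903.5 (0.12). Ube2v2, a variant without a catalytic cysteine, read 352.2 and 252.9 (-0.48), and Ube2t, the Fanconi anaemia pathway enzyme, read 431.8 and 346.1 (-0.32).

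The enzymes that serve the anaphase-promoting complex, Ube2c and Ube2s, read 5850.4 and 5431.8 (-0.11) and 3714.0 and 4040.8 (0.12), so neither differed by more than the probe spread. Probe sets of Ube2e3 disagreed in direction (0.098 and -0.10), as did those of Ube2l3 (-0.062 and 0.20). Ube2b, of the DNA damage tolerance pathway (0.20), Ube2e1 (0.29), Ube2d3 (-0.19) and the cullin-ligase partner Ube2r2 (-0.12) complete the class.

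**Figure D4:**
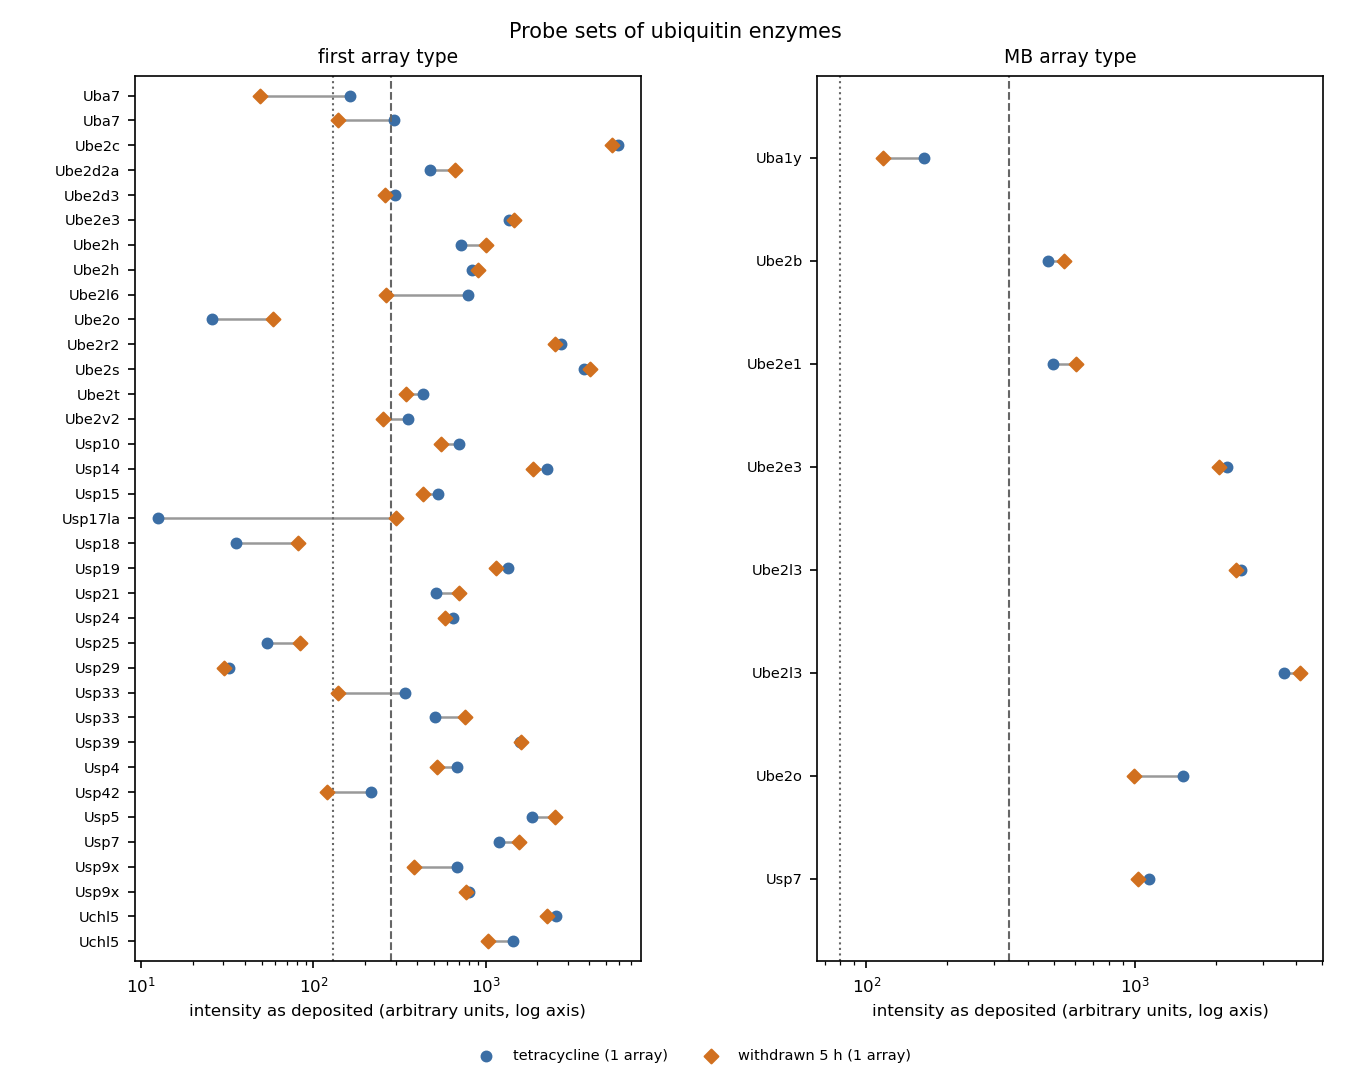
Intensity of each activating, conjugating and deubiquitinating enzyme probe set (x axis, arbitrary units on a log scale) on the tetracycline array (circles) and the withdrawn array (diamonds), 1 row per probe set and 1 panel per array type; dotted and dashed lines are the floor and the control floor. Uba7, Ube2l6 and 1 Usp33 probe set have the longest leftward lines above the floor, and Usp17la has the longest line of all, from 12.5 to 302.7.

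Ubiquitin-specific proteases, the largest family of deubiquitinating enzymes, were measured for 12 of 17 genes. Of these 8 were lower and 4 higher (66.7% lower, against 50.4% of all genes), with a median of -0.25. Taking only the brightest probe set of a gene, it was -0.096. Usp4 (680.2 to 524.2, -0.38), Usp10 (703 to 551.1, -0.35), Usp15 (532.2 to 433.9, -0.29) and Usp19 (1357 to 1150.8, -0.24) were lower by about the probe spread or less. Usp24 was at -0.14, and Usp39, a splicing protein without protease activity, had the smallest change of the family (0.013).

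The genes with the largest changes in this family had conflicting or opposite values. Usp9x, a protease encoded on the X chromosome, read 678.4 and 382.0 on 1 probe set (-0.83) and 801.6 and 774.7 on the other (-0.049). Usp33 read 342.0 and 138.7 on a probe set marked for a gene family, 2.47-fold lower (-1.30), but 506.1 and 757.4 on its second probe set (0.58). The difference between these Usp33 changes, 1.88, was the widest of any pair of member probe sets, and the lower one was under the control floor after withdrawal. Usp5, which disassembles free ubiquitin chains, read 1874.8 and 2538.9 (0.44), and Usp21, which acts on histone H2A, read 515.4 and 702.1 (0.45). Usp7, the protease of Mdm2 and p53, gave 0.40 on the first type and -0.14 on MB.

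The remaining proteases were faint. Usp17la, a member of an immediate early family of lymphoid cells, read 12.5 and 302.7, a bound of at least 2.33-fold higher against the floor and 1.08-fold against the control floor. Usp42 read 215.8 and 120.4, a bound of 1.66-fold lower. Usp25 (53.4 and 84.0) and Usp29 (32.2 and 30.3) were below the floor on both arrays. Except for Usp17la after withdrawal, all these values lay below the control floor.

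Repeated probe sets give a measure of how far a single value can be relied on. Among members there were 10 pairs on 1 array type, of which 7 shared a direction, and 6 pairs across types, of which 3 did. Their changes differed by a median of 0.28 and 0.26. For all genes 389 of 675 pairs on 1 type and 171 of 299 pairs across types shared a direction. Of the core genes with 2 probe sets, Psma2, Psma3, Psmb1 and Psmb3 were lower on both, and Psma4 was split.

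**Figure D5:**
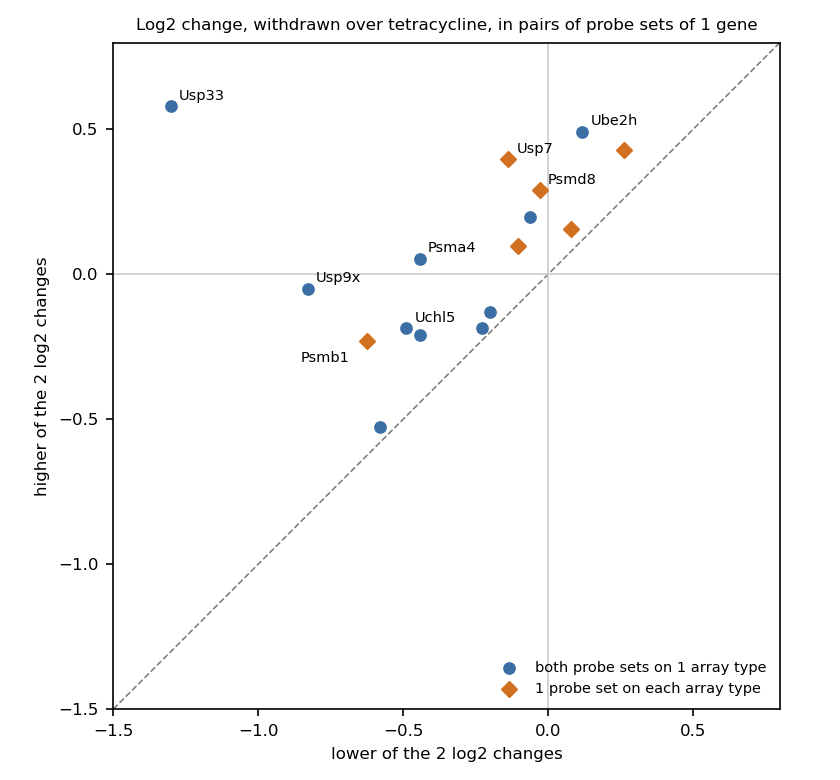
Log2 changes of the 2 probe sets of 1 gene, the lower on the x axis and the higher on the y axis (no unit), for pairs on 1 array type (circles) and across types (diamonds); points on the dashed line agree exactly. Points with both values under 0 were lower on both probe sets, and Usp33, at -1.30 and 0.58, lies farthest from the line.

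Other genes of the pathway were described from lists. Of 30 measured ubiquitin ligase genes 21 were higher and 9 lower, with a median of 0.23, against 49.6% of all genes higher. At 2-fold, 3 were higher, against 5.26% of all genes (237 of 4507), and 0 were lower, against 4.22%. These were Birc2, an apoptosis inhibitor with a ligase domain (220.3 to 616.4, 1.48), the cullin Cul7 (259.8 to 657.9, 1.34) and Siah1a (424 to 925.6, 1.13). Birc2 and Cul7 were below the control floor with tetracycline. Among cullin-ligase parts, Skp1 (3708.9 to 2147.3, -0.79) and Cul4a (854 to 513.7, -0.73) were lower, and were chosen after their values were seen. Other such parts besides Cul7 were mostly higher: Cul2 (0.38), Btrc (0.32), Fbxw11 (0.47) and Vhl (0.79), with Rnf7 lower (-0.22).

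Of 6 measured deubiquitinases of other families, 5 were lower (median -0.23), against 50.4% of all genes, with none past 2-fold. Tnfaip3, a deubiquitinase that restrains NF-kappaB signalling, was below the floor with tetracycline and went the other way. It read 10.8 and 901.4 on the MB type, a bound of at least 11.3-fold higher against the floor and 2.65-fold against the control floor. Substrate delivery genes had a median of 0.11 over 11 genes. In that list Nfe2l1, the factor that induces proteasome genes when proteasome activity is short, read 2923.2 and 5098.4 on its only probe set (0.80), chosen after its values were seen. All 4 probe sets of Vcp, the segregase p97, were lower (-0.24 to -0.73), and those of Ubqln1 were split (-1.33, 0.67 and 0.46), both genes chosen after their values were seen. Ubiquitin-like modifiers and their enzymes had a median of 0.055 over 10 genes, and class I antigen processing genes one of -0.061 over 8, with B2m, the class I light chain, at -0.32, also chosen afterwards. No ubiquitin precursor gene had a measured probe set with a single symbol.

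Of the members that interferon is known to induce, Uba7, Ube2l6 and Psme1 were lower. Psmb9 was higher on the MB type (0.76), below the control floor with tetracycline, and Psmb8, Psmb10 and Usp18 gave no direction. The listed interferon-stimulated genes had a median of -0.47 over 11 measured genes, 8 of them lower, against 50.4% of all genes. The 3 past 2-fold were Lgals3bp (-1.16), Socs1 (-1.16) and Gbp2 (-1.05), against 4.22% of all genes. Of these only Socs1 exceeded the control floor on both arrays, and over the 5 genes above that floor the median was -0.12. Mx2 (-0.90) and Irgm1 (-0.88) were also lower, both below the control floor after withdrawal. Others were higher: Irf7, an interferon-induced transcription factor, read 179.8 and 338 (0.91), below the control floor with tetracycline. Irf1 read 2006.7 and 2657.5 (0.41), above the control floor on both arrays. The 3 genes of the list that exceeded the floor after withdrawal only were Oas1g (49.6 to 301, at least 3.76-fold higher), Rsad2 (112.1 to 275.6, at least 2.12-fold) and Ifit3 (92.8 to 201.2, at least 1.55-fold), all under the control floor. No unmeasured gene of the list exceeded the floor with tetracycline only. The leukocyte markers had 12 measured genes in this fibroblast line, with a median of 0.16. Of these 8 were higher, against 49.6% of all genes, and 4 lower. Past 2-fold, Coro1a (151.9 to 348.4) and Fcgr3 (240.8 to 505.6) were higher and Cd3g (-1.33), Cd79b (-1.13) and Ighm (-1.38) lower, none above the control floor on both arrays. Of the 5 markers above it on both, Cd3e (0.24), Cd14 (0.088), Lyz2 (0.38) and Laptm5 (0.67) were higher, and Ptprc, the pan-leukocyte antigen, was lower (710.1 to 363.9, -0.96). Epithelial (median -0.43) and muscle markers (-0.22) had 3 and 8 measured genes.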

How the data were processed

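The value tables, 1 per array type, held 1 linear intensity per probe set and array, as deposited, with no detection calls. Which software made them, and how they were scaled, is not given in the sources used here. The 2% trimmed means of the 2 arrays of a type agreed (998.3 and 998.7 for the first type, 994.3 and 995.2 for MB), so the deposited intensity values were used unscaled. The 61 control probe sets per type were left out of all counts. Genes came from the platform annotation: 5541 and 2001 probe sets had 1 symbol, 197 and 27 had several and 785 and 4506 had none. The array types were fitted apart, and only log2 changes were joined. The counting code was checked on simulated arrays, with large changes planted in bright probe sets and little noise. That check says nothing of counts among faint, noisy probe sets. Alternatives were other scalings (trimmed mean, quantile, loess with a span of 0.4), floors (64.86 and 40.00, 259.4 and 160.0, the control floor with and without the Bio and Cre probe sets, none), fold limits, and probe set choices.

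Members and lists were chosen with earlier results of these data known. Named are all genes of the small classes, the 3 largest changes of each other class, members past 1.5-fold, with discordant probe sets or with a bound of 2-fold, and up to 4 list genes past 2-fold. Others complete a class, are marked as chosen later, or were named outside this rule, among them Irf1, Irf7 and the cullin-ligase parts. Psmc3ip and Psme3ip1 were kept as members outside the proteasome classes. Python 3.11.15 with numpy 2.4.6, pandas 2.3.3, statsmodels 0.14.6 and matplotlib 3.10.9 was used.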

Additional observations from a re-analysis of the deposited data

How the results depend on the processing

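No paired analysis was possible because each condition has 1 array per type. A change, median or count was compared with its value under each alternative, and a median was taken as moved when it shifted by more than 0.37 divided by the square root of its number of genes. Only the other scalings can alter the change of a single member, since floors and probe set choices decide only which members enter. Under those scalings all 82 measured members stayed within 0.37 of the main value, with a largest shift of 0.13 under quantile normalization. Only Usp39 (0.013) changed direction, to just under 0, under quantile normalization and under loess. The core median stayed between -0.32 and -0.28. On the first type the 3 lower members past 2-fold became 1 with the floor doubled or at 3-fold, 0 at either control floor and without the less specific probe sets, 5 with no floor and 6 at 1.5-fold. The 0 higher ones became 1 with the floor halved and 5 with no floor. On the MB type 1.5-fold gave 1 in each direction. The conjugating enzyme median of -0.055 turned to 0.069 at either control floor. The immunoproteasome value of 0.76, from Psmb9 alone, became -0.040 over 3 genes with the floor halved or removed. The median of the 2 subunit-binding genes, -0.081, was -0.62 with the floor halved or removed and -0.63 with quantile normalization. Activators and chaperones had -0.25 from the first type only and 0.27 from MB only, and all members together 0.039 from MB only. The protease median became -0.096 with the brightest probe sets, and the interferon list -0.12 at the control floor. The cause of these shifts was not tested, except that other floors change which genes enter. Faint probe sets limit the immunoproteasome and ISG15 pathway values.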
